A study of Mus musculus with 4 samples.

Results

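Genes of the integrated stress response and the unfolded protein response were examined in mouse embryonic stem cells (mESCs) with and without the labelled deletion of *Spen*, the gene of an RNA-binding repressor protein. The 10 genes were listed by pathway role, with earlier results of these data known, out of 37310 genes in the count table. They are the transcription factors *Atf4*, *Atf5*, *Ddit3* (CHOP) and *Xbp1*, the eIF2α kinase *Eif2ak3* (PERK), the ATF4 and CHOP targets *Trib3*, *Asns* and *Chac1*, and the endoplasmic reticulum (ER) proteins *Hspa5* (BiP) and *Herpud1*. RNA-seq was performed on 2 libraries of the HATX WT line and 2 libraries of *Spen* KO clone 2, made in the same background. Both lines carry an inducible *Xist* transgene, are described as haploid in the study, are of a mixed genomic background, were grown in serum and LIF, and have no treatment in the labels. The KO group is 1 clone, so any other difference between that clone and the WT line is part of each comparison. The labels do not say that the libraries of a group came from separate cultures, and p-values then measure only the spread between libraries.

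When proteins misfold in the ER, the kinase PERK phosphorylates the initiation factor eIF2α, which slows translation in general and favours translation of the *Atf4* mRNA. ATF4 then drives genes of amino acid uptake and synthesis, and with CHOP a set of stress genes. The other sensors, ATF6 and IRE1, act through ER stress elements in promoters and through splicing of *Xbp1* mRNA, and raise chaperones and degradation factors. Gene-level counts measure the amount of mRNA and do not show ATF4 translation or *Xbp1* splicing.

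Promoter sequences are shown for the 5 members that hold a motif of these pathways, so that called and uncalled members can be compared letter by letter. They are RefSeq windows of build GRCm38.p6, which is not the mm9 build of the counts, and cover the 250 bases before the start site on the strand of the gene, 5′ to 3′. Capitals mark matches to the C/EBP-ATF response element (CARE, TGATGNAA), its variants TGACGNAA and TGGTGCAA, the ER stress element (ERSE, which is CCAAT, 9 bases of any kind and CCACG) and ERSE-II (ATTGG, 1 base and CCACG), on either strand. The variant TGGTGCAA was added after the promoters had been read. The windows are those of *Trib3* at chr2:152344061-152344310 (minus strand), *Chac1* at chr2:119350992-119351241 (plus), *Asns* at chr6:7693210-7693459 (minus), *Herpud1* at chr8:94386179-94386428 (plus) and *Hspa5* at chr2:34771840-34772089 (plus).
Trib3: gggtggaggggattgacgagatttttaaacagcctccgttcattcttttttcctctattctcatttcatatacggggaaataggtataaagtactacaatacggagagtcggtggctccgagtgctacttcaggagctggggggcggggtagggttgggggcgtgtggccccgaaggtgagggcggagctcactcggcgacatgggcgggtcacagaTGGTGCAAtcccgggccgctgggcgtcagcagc
Chac1: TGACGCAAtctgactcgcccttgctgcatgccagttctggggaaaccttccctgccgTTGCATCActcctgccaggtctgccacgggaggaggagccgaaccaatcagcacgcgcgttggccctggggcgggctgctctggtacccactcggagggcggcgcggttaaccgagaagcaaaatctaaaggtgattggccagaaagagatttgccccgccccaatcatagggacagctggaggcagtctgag
Asns: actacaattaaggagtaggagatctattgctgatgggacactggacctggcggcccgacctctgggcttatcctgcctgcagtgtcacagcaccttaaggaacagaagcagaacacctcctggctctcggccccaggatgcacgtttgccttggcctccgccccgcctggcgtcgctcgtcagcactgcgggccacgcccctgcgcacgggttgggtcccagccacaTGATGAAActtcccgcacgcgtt
Herpud1: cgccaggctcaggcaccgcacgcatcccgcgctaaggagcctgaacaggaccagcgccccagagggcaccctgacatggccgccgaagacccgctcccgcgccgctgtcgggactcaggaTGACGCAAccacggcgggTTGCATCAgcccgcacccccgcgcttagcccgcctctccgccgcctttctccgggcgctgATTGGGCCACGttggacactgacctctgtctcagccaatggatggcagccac
Hspa5: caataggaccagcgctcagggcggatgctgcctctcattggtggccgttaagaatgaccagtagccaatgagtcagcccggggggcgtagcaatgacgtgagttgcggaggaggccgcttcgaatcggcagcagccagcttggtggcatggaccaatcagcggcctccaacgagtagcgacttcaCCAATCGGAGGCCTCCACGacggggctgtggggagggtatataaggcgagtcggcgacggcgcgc

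All 10 members were matched to a window. Of the 10, 4 held a CARE or a variant, and 2 held an ERSE or ERSE-II. *Trib3* is among the 4 only through TGGTGCAA, the variant added after the promoters had been read, so its match was set by that choice. Among all 32851 promoter windows of that length, 3.45% held TGATGNAA, 1.39% held TGACGNAA, 0.463% held TGGTGCAA, 0.113% held the ERSE and 0.0304% held ERSE-II. *Herpud1* was the one member with both kinds, 2 CARE-type matches and 1 ERSE-II. The windows of *Atf4*, *Atf5*, *Ddit3*, *Xbp1* and *Eif2ak3* held none of these letters. A match describes the sequence and was not tested for binding.

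Total counts ranged from 36667685 to 61908422 per library, and 10 mESC markers such as *Nanog* and *Pou5f1* summed to between 264960 and 295400 normalized counts per library. Of these 10, 3 were higher and 0 lower by DESeq2 at an adjusted p under 0.05, as at an unadjusted p under 0.05. By the adjusted p, 16.4% of all genes tested were higher and 15.8% lower. Of those with a mean of at least 1000 normalized counts, 29.8% were higher and 19.2% lower. *Nanog* had 47454 and 47950 normalized counts in WT against 42237 and 49531 in KO-labelled libraries. The 8 fibroblast markers summed to 207 and 240 in WT and 432 and 501 in KO-labelled libraries, mostly *Thy1*, the 7 primitive endoderm markers to between 5548 and 6146 in WT and 2314 and 2386 in KO-labelled libraries, mostly *Lamb1*, and the 5 trophoblast markers found to between 1324 and 1400 in WT and 705.07 and 705.28. Of those with an adjusted p, 1 of 5 fibroblast markers was higher (*Thy1*) and 1 lower, 2 of 4 primitive endoderm markers were lower and 3 of 4 trophoblast markers were lower. The markers *Afp*, *Sox17*, *Postn* and *Dcn* had at most 13.1 normalized counts in any library, and *Lamb1* fell by 1.33 on the log2 scale. The part of these cells in the results below was not tested. *Spen* itself had 3716 and 3047 normalized counts in WT and 7797 and 6242 in the libraries labelled KO, so gene-level counts did not check the label. The study examined Spen protein in WT and KO cells by immunoblot, which is not analysed here, and the group is called KO-labelled.

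The first comparison asks which members changed with the labelled loss of Spen. DESeq2 (Wald test, Benjamini-Hochberg adjusted over 17710 genes) found 1 member higher, *Hspa5*, and 4 lower, *Trib3*, *Chac1*, *Atf5* and *Herpud1*, at an adjusted p under 0.05. The other 5, *Atf4*, *Ddit3*, *Asns*, *Xbp1* and *Eif2ak3*, did not pass. Among all genes tested, 16.4% were higher and 15.8% lower by the same rule, so a called gene is common in this comparison. Among the 6988 genes with a mean of at least 1000 normalized counts, 29.8% were higher and 19.2% lower. By DESeq2 and by edgeR 0 members reached the study's thresholds of a 2-fold change and an adjusted p under 0.001, while 5 had an unadjusted p under 0.05. Among all genes tested, 1.36% were higher and 3.15% lower by those thresholds. All 10 had an adjusted p. With any 1 library left out 2 members were lower in place of 4, since *Atf5* and *Herpud1* lost their calls. The median log2 fold change of the members was -0.06, beside 0.00 for all genes tested (0.0049). In bulk RNA, fewer cells that express a gene and less RNA per cell cannot be told apart.

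**Figure D1:**
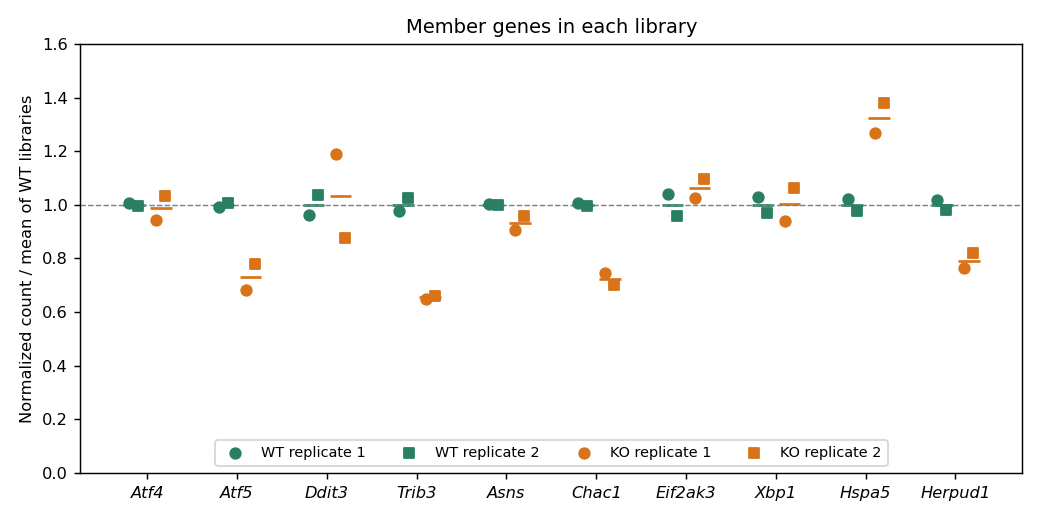
Normalized count of each member in each of the 4 libraries, divided by the mean of the WT libraries of that gene (linear axis from 0), with green for WT, orange for KO-labelled, circles and squares for replicates 1 and 2, and bars for group means of 2 libraries. The KO-labelled libraries lie below both WT libraries for *Atf5*, *Trib3*, *Asns*, *Chac1* and *Herpud1*, above them for *Hspa5*, and overlap them for the other 4 genes. Of all genes tested, 34.8% lie below in this way and 35.4% above.

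Among the transcription factors, *Atf4* (ENSMUSG00000042406.6, chromosome 15, 80085614 to 80087970, mm9), the main effector of the integrated stress response, had a higher mean count than 97.4% of genes tested. Its normalized counts were 17449 and 17242 in WT and 16369 and 17919 in KO-labelled libraries. The groups overlapped. Its log2 fold change by DESeq2 was -0.02 with SE 0.07 and a 95% interval of -0.16 to 0.12 (adjusted p = 0.899).

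*Atf5* (ENSMUSG00000038539.8, chromosome 7, 52067627 to 52072028), a related factor that is translated under eIF2α phosphorylation and is linked to the mitochondrial stress response, fell. It had 732 and 742 normalized counts in WT and 503 and 575 in KO-labelled libraries. Both KO-labelled libraries were below both WT libraries, as in 34.8% of all genes tested, and replicate 1 was the lower. Group means were 737 ± 6.90 in WT and 539 ± 50.8 after the labelled KO (SD, n = 2). DESeq2 put the log2 fold change at -0.45 with SE 0.15 (adjusted p = 0.0105). The call rested on all 4 libraries, since with any 1 left out the adjusted p was 0.0523 to 0.253. Models of *Il4i1* and *Nup62* on the other strand cover 4.12% of its exonic bases.

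*Ddit3* (ENSMUSG00000025408.9, chromosome 10, 126727830 to 126733344), which encodes the pro-apoptotic factor CHOP, was the lowest member. It had 216 and 233 normalized counts in WT, and its KO-labelled libraries at 267 and 197 lay on either side of them. By DESeq2 the log2 fold change was 0.05 with SE 0.24 and a 95% interval of -0.43 to 0.53. Behind it were 163 to 307 raw counts per library and a difference of 30.2% between the KO-labelled libraries. The genes of chromosome 10 had a median log2 fold change of -0.35, and with chromosome medians removed *Ddit3* had 0.39 (DESeq2 adjusted p = 0.248, the lowest among its alternatives, which reached 0.999).

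*Xbp1* (ENSMUSG00000020484.11, chromosome 11, 5420662 to 5425896), whose spliced form drives ER chaperone genes, had 4050 and 3821 normalized counts in WT and 3700 and 4188 in KO-labelled libraries. The KO-labelled range enclosed the WT range. The log2 fold change was 0.0036 with SE 0.09 and an interval of -0.17 to 0.18. The kinase *Eif2ak3* (ENSMUSG00000031668.8, chromosome 6, 70794509 to 70855239) had 1588 and 1465 in WT and 1565 and 1675 in KO-labelled libraries. Its groups also overlapped, at a log2 fold change of 0.09 with SE 0.11 and an interval of -0.12 to 0.30.

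Next, the targets of ATF4 and CHOP were compared. *Trib3* (ENSMUSG00000032715.8, chromosome 2, 152163158 to 152169768), a pseudokinase that restrains AKT and ATF4 itself, had the largest change of the 10. It fell from 2739 and 2877 normalized counts in WT to 1824 and 1854 in KO-labelled libraries. The KO-labelled libraries differed by 1.61% from each other. Both were below both WT libraries, as in 34.8% of all genes tested. From 2808 ± 97.6 the mean went to 1839 ± 21.0 (SD, n = 2), which is 1.53-fold lower. DESeq2 put the log2 fold change at -0.61 with SE 0.09 (adjusted p = 5.77e-10). Of all genes tested, 25.3% had a larger absolute log2 fold change.

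*Chac1* (ENSMUSG00000027313.3, chromosome 2, 119176965 to 119180117), which breaks down glutathione, had 1620 and 1602 normalized counts in WT and 1204 and 1128 in KO-labelled libraries. The KO-labelled group lay below WT without overlap, as in 34.8% of all genes tested. Its mean of 1166 ± 54.1 was 1.38-fold lower than that of 1611 ± 12.9 in WT (SD, n = 2). DESeq2 put the log2 fold change at -0.47 with SE 0.11 (adjusted p = 0.000125). Its window holds TGACGCAA and TTGCATCA, the latter a CARE on the other strand, while that of *Trib3* holds TGGTGCAA.

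*Asns* (ENSMUSG00000029752.6, chromosome 6, 7625169 to 7643254), the asparagine synthetase and a classic ATF4 target, was not called. It had 29991 and 29850 normalized counts in WT and 27160 and 28700 in KO-labelled libraries. Both KO-labelled libraries were lower, as in 34.8% of all genes tested, but by little. The DESeq2 estimate was a log2 fold change of -0.10 with SE 0.06 and a 95% interval of -0.23 to 0.03 (adjusted p = 0.257). Over the alternatives this p ran from 0.0512 to 0.735. Its window holds TGATGAAA, 23 to 16 bases before the start.

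Ratios of raw counts within a library do not depend on scaling. There were 6.37 and 5.99 *Atf4* counts per *Trib3* count in WT and 8.97 and 9.67 in KO-labelled libraries. Per *Chac1* count there were 10.8 in each WT library and 13.6 and 15.9 in KO-labelled libraries, and per *Atf5* count 23.8 and 23.3 against 32.5 and 31.2. Each ratio was thus higher in both KO-labelled libraries than in both WT libraries. The ratios restate the falls of *Trib3*, *Chac1* and *Atf5* from the same counts and are not separate evidence. Within the pair of called targets the ratio moved less, with 1.69 and 1.80 *Trib3* counts per *Chac1* count in WT and 1.51 and 1.64 in KO-labelled libraries.

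The ER proteins moved apart. *Hspa5* (ENSMUSG00000026864.7, chromosome 2, 34627490 to 34632051), the main HSP70 chaperone of the ER lumen, was the one member that rose. It had 37706 and 36067 normalized counts in WT and 46797 and 50888 in KO-labelled libraries. Both KO-labelled libraries were above both WT libraries, as in 35.4% of all genes tested. The mean of 48843 ± 2893 was 1.32-fold higher than that of 36886 ± 1159 in WT (SD, n = 2). DESeq2 put the log2 fold change at 0.41 with SE 0.07 (adjusted p = 4.97e-08).

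*Herpud1* (ENSMUSG00000031770.9, chromosome 8, 96910338 to 96919277), a membrane protein of ER-associated degradation, fell. It had 1388 and 1341 normalized counts in WT and 1041 and 1120 in KO-labelled libraries. These lay below WT without overlap, as in 34.8% of all genes tested. Group means were 1364 ± 33.6 in WT and 1080 ± 56.1 after the labelled KO (SD, n = 2), 1.26-fold apart. DESeq2 put the log2 fold change at -0.34 with SE 0.11 (adjusted p = 0.0128). Leaving out any single library took the adjusted p to between 0.0834 and 0.243. The raw counts gave 27.2 and 26.9 *Hspa5* counts per *Herpud1* count in WT and 45.0 and 45.4 in KO-labelled libraries, 1.67-fold more.

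**Figure D2:**
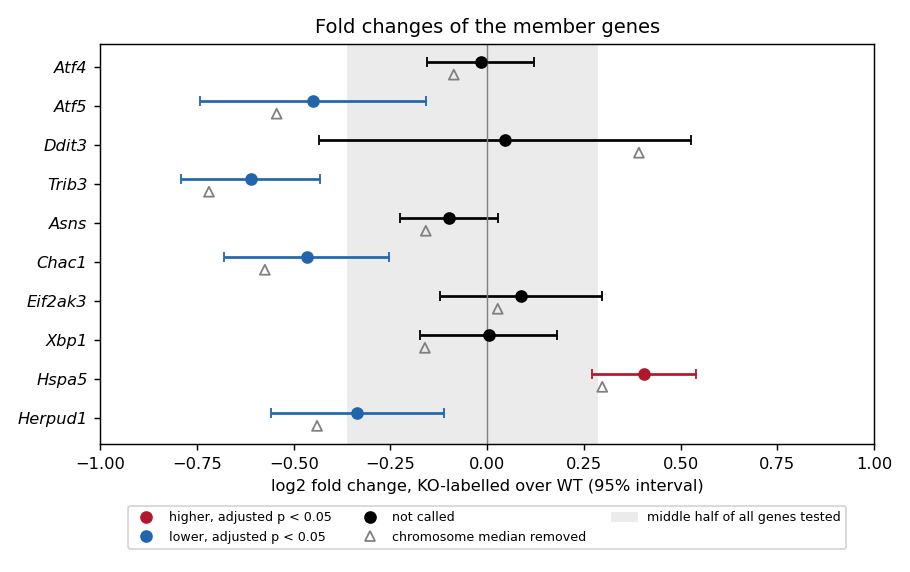
Log2 fold change of each member, KO-labelled over WT, with its 95% interval (circles), and after removal of the median of its chromosome (triangles), over the range from the first to the third quartile of all genes tested (grey, -0.36 to 0.28). *Trib3*, *Chac1* and *Atf5* lie left of the grey band, *Hspa5* right of it, and the triangles keep the side of zero of all 5 called members.

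Chromosomes differed in their medians between the lines, so each member was also compared with its chromosome removed. Of all genes, 2130 were then higher and 2564 lower at a DESeq2 adjusted p under 0.05, against 2909 and 2805 before. The 5 called members stayed called and the other 5 uncalled, with *Atf4* at -0.09, *Asns* at -0.16, *Xbp1* at -0.16, *Eif2ak3* at 0.03 and *Ddit3* at 0.39 on the log2 scale. *Trib3* had -0.72, *Chac1* -0.57, *Atf5* -0.54 and *Herpud1* -0.44 on the log2 scale, and *Hspa5* had 0.30, with DESeq2 adjusted p from 1.53e-13 to 0.00168. Over all alternatives with a test, the adjusted p ran from 1.53e-13 to 0.00035 for *Trib3*, from 1.54e-06 to 0.0411 for *Chac1* and from 9.25e-09 to 0.00198 for *Hspa5*. No exonic word of 50 bases in any of the 10 members occurs elsewhere in the mm9 genome.

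Levels were then set side by side per length of exon, in normalized counts per kb. In WT cells *Asns*, *Hspa5* and *Atf4* had 10940, 10500 and 10061 per kb, and the next gene, *Trib3*, had 1322. *Xbp1* followed at 1212, *Chac1* at 984, *Herpud1* at 585, *Atf5* at 370, *Eif2ak3* at 281 and *Ddit3* at 131. No neighbours in this order overlapped between the WT libraries. In KO-labelled cells *Hspa5* came first at 13904 ± 824 (SD, n = 2). *Asns* and *Atf4* overlapped there, at 10212 and 9944, as did *Eif2ak3* and *Atf5*, at 298 and 271. *Trib3* at 865 came after *Xbp1* at 1214.

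**Figure D3:**
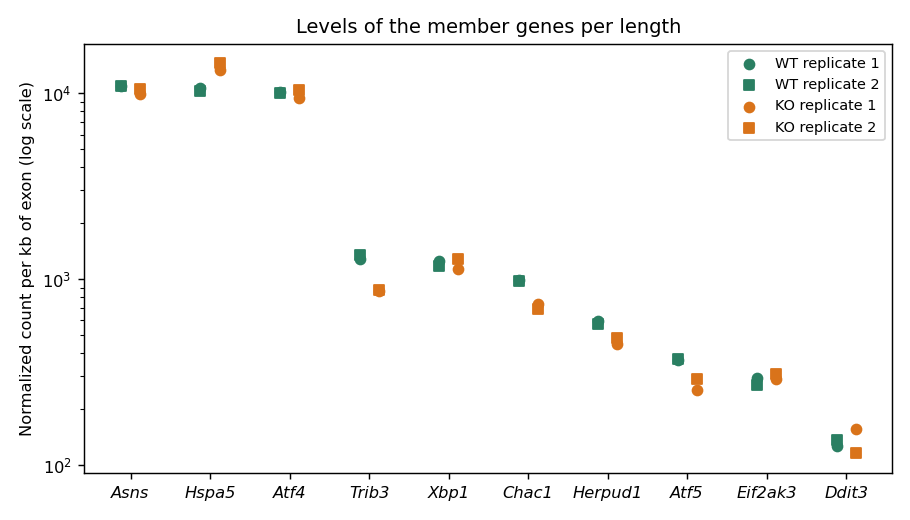
Level of each member in normalized counts per kb of exon (log axis) in each library, ordered by the WT mean, with green for WT, orange for KO-labelled, and circles and squares for replicates 1 and 2. *Asns*, *Hspa5* and *Atf4* lie between 9495 and 14486 per kb in both lines, and the other 7 members between 115 and 1354.

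The wider pathway was described from 10 lists of 130 genes written by role, members left out, and all 130 had an adjusted p. At an adjusted p under 0.05, 35 genes were higher and 32 lower, 26.9% and 24.6%, beside 16.4% and 15.8% of all genes tested. Most of the 130 are abundant: 98 had a mean of at least 1000 normalized counts, and of these 33.7% were higher and 22.4% lower, beside 29.8% and 19.2% of all genes at that level. The study's thresholds were passed by 4 genes, *Impact*, *Atf3*, *Jdp2* and *Sec24d*, each lower. Of all genes tested, 3.15% were lower and 1.36% higher by those thresholds. By edgeR at an adjusted p under 0.05 the wider lists held 36 higher and 35 lower. With any 1 library left out 19 to 24 were higher and 19 to 21 lower.

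Of the 36 genes in the 3 lists of ATF4 targets, 18 were lower and 5 higher, beside 15.8% and 16.4% of all genes tested. Among the 25 of them with a mean of at least 1000 normalized counts, 11 were lower and 5 higher, beside 19.2% and 29.8% of genes at that level. Of the 36, 10 to 11 were lower and 2 to 4 higher with any 1 library left out. Of 18 ATF4 and CHOP targets of the stress response, 9 were lower, 1 higher and 8 not called, with a median log2 fold change of -0.41. With chromosome medians removed this median was -0.20 and 8 of 17 tested were lower, 6 of them shared with the 9. *Jdp2* (an AP-1 repressor) fell from a mean of 437 to 124 normalized counts (-1.81), *Atf3* (a stress-induced repressor) from 278 to 100.4 (-1.47) and *Stc2* (a secreted glycoprotein) from 920 to 483 (-0.93). *Ifrd1* was the gene that rose, at 0.20, and on chromosome 12 (median -0.32) it had 0.52 with chromosome medians removed. It was not called with any 1 library left out, nor was any other gene of the list higher, and 6 to 7 were lower. Of the 15 genes of this list with a promoter window, 5 held a CARE or a variant, namely *Atf3*, *Fgf21*, *Jdp2*, *Nupr1* and *Vldlr*, against 5.98% of the 27025 genes in the table. The other lists of ATF4 targets held one in 2 of 8 matched synthesis genes (*Psat1* and *Pycr1*) and 1 of 6 matched transporters (*Slc7a11*). Beyond ATF4 targets, 1 of 6 matched ER stress sensor genes (*Creb3l2*) and 1 of 11 eIF2 genes (*Eif2s3x*) held one. So did 1 of 13 matched ER chaperones (*Dnajb9*) and 1 of 13 genes of translocation and ER export (*Ssr4*). The lists of ER-associated degradation, cytosolic heat shock and mitochondrial genes held 0. Of the 9 targets in amino acid synthesis, 6 were lower and 1 higher, with a median of -0.25. *Gpt2* (alanine aminotransferase) fell by 0.97 on the log2 scale, *Psat1* (serine synthesis) by 0.30 and *Phgdh* (the first enzyme of serine synthesis) by 0.84. *Psat1* lies on chromosome 19 (median 0.38) and had -0.68 with chromosome medians removed. *Phgdh* is uncertain, because 51.9% of its exonic words of 50 bases occur elsewhere in the genome. *Pycr1* (proline synthesis) was higher, at 0.26, and was not called with chromosome medians removed (0.09, DESeq2 adjusted p = 0.527, the highest of its alternatives, which began at 0.00655). It also lost its call with any 1 library left out, when 3 to 5 genes of the list were lower.

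Of 9 amino acid transporters, 3 were higher and 3 lower, beside 16.4% and 15.8% of all genes tested and 29.8% and 19.2% of those with a mean of at least 1000. There were 2 and 4 with chromosome medians removed, of which 2 and 2 were shared. The cationic amino acid carriers *Slc7a1* and *Slc7a3* rose by 0.29 and 0.27. *Slc3a2*, the heavy chain shared by several transporters, rose by 0.27, but it lies on chromosome 19, whose median was 0.38, and with that removed it had -0.11 and was not called (DESeq2 adjusted p = 0.339). The cystine carrier *Slc7a11* fell from 113 to 45.7 normalized counts (-1.31), the glutamine carrier *Slc1a5* fell by 0.19, and the glycine carrier *Slc6a9* by 0.69, with other genes on the opposite strand over 30.25% of its exonic bases, and it was not called with chromosome medians removed (-0.48, DESeq2 adjusted p = 0.162). With any 1 library left out 0 to 1 transporters were lower, and *Slc1a5* and *Slc6a9* lost their calls in each case. *Slc7a11* lost its call without WT replicate 1, WT replicate 2 or KO-labelled replicate 2, and *Slc3a2* without WT replicate 1 or either KO-labelled replicate.

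Upstream of ATF4, the 15 genes of eIF2 kinases, phosphatases and initiation factors had 4 higher, 2 lower and a median of 0.03, beside 16.4% and 15.8% of all genes tested and 29.8% and 19.2% of those with a mean of at least 1000. Of these 15, 5 were higher and 2 lower by edgeR, with upper-quartile factors and with the low-count filter, and 6 and 2, at a median of 0.16, with chromosome medians removed, of which 2 higher and 2 lower genes were shared. *Impact*, an imprinted gene whose product restrains the kinase GCN2, fell from 1157 to 239 normalized counts (-2.28), and the gene of that kinase, *Eif2ak4*, fell by 0.36, uncalled without WT replicate 1 or KO-labelled replicate 2. *Eif2b1*, a subunit of the eIF2 exchange factor, rose by 0.48. *Eif2s2* rose by 0.27 and was not called with chromosome medians removed (0.16, DESeq2 adjusted p = 0.092) or without KO-labelled replicate 1. *Eif2s3x*, at 0.27, is uncertain, since 91.5% of its words occur elsewhere. *Eif2ak2*, the double-stranded RNA kinase PKR, had 741 and 790 normalized counts in WT and 999 and 904 in KO-labelled libraries. These lay above WT without overlap, as in 35.4% of all genes tested, at a log2 fold change of 0.31 (DESeq2 adjusted p = 0.056). The eIF2α phosphatase subunit *Ppp1r15a*, itself an ATF4 target, had 1705 and 1664 in WT and 1670 and 1772 in KO-labelled libraries, which overlapped. Neither passed the test, and both were chosen for the text after their values were seen. Among 10 ER stress sensors and their processing enzymes, 0 were higher and 1 lower, by DESeq2 and by edgeR, as at an unadjusted p under 0.05. The lower gene was *D10Wsu52e* (the *Xbp1* RNA ligase RTCB), at -0.27, on chromosome 10. It reversed to 0.07, uncalled, with chromosome medians removed, when 1 other gene of this list was higher.

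**Figure D4:**
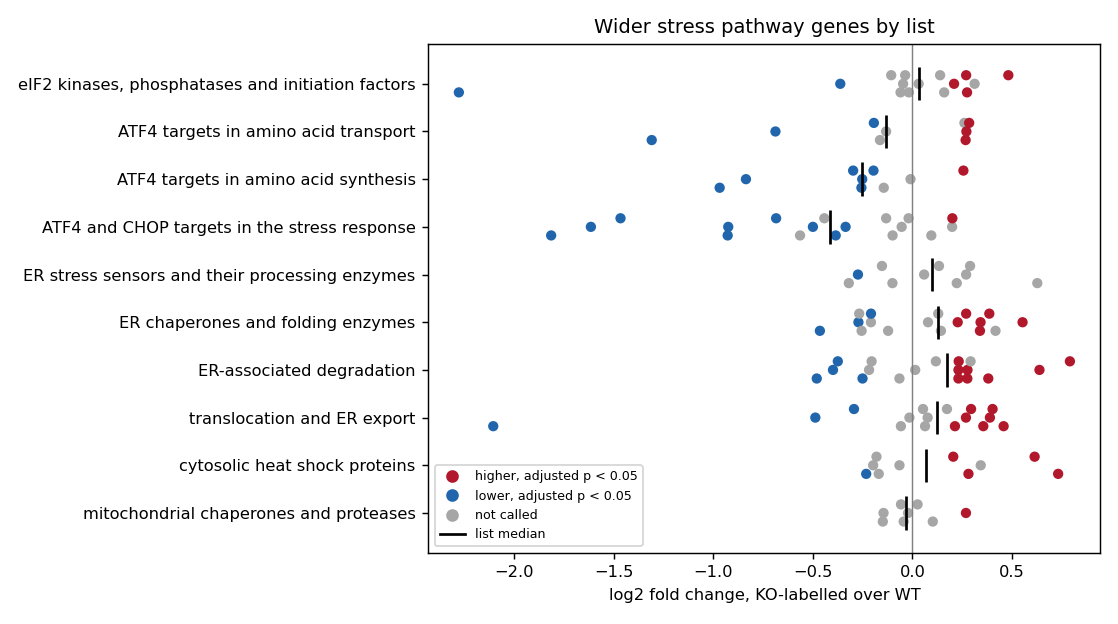
Log2 fold change, KO-labelled over WT, of each of the 130 genes in the 10 wider lists (1 point a gene), in red where higher and blue where lower at a DESeq2 adjusted p under 0.05, and grey where not called, with a black line at each list's median. The stress targets of ATF4 and CHOP have their median at -0.41 (-0.20 with chromosome medians removed), and the ER-associated degradation list has its median at 0.17 (0.12).

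Of the 51 genes in the 3 lists of ER proteins, 21 were higher and 10 lower, beside 16.4% and 15.8% of all genes tested. Among the 40 of them with a mean of at least 1000, 19 were higher and 8 lower, beside 29.8% and 19.2% of genes at that level. Of the 51, 11 to 14 were higher and 5 to 6 lower with any 1 library left out, and with chromosome medians removed 16 were higher and 5 lower. Of 17 chaperones and folding enzymes, 6 were higher and 3 lower, with a median of 0.13, and by edgeR 6 were higher and 5 lower. *Manf*, a secreted ER stress factor, rose from 4440 to 6517 normalized counts (0.55), the BiP exchange factor *Hyou1* rose by 0.39 (0.25 with chromosome medians removed) and the lectin chaperone *Calr* by 0.34. *Hsp90b1*, the ER HSP90, fell by 0.46 on chromosome 10, with other models over 10.29% of its exonic bases on the opposite strand, and had -0.12 with the chromosome median removed (DESeq2 adjusted p = 0.197). *Dnajc3*, an inhibitor of PERK, fell by 0.27, uncalled with any 1 library left out. *Pdia6*, a disulfide isomerase on chromosome 12, fell by 0.21 and had 0.11 with the chromosome median removed, uncalled, as it was without either WT replicate or KO-labelled replicate 1. With any 1 library left out 1 to 2 genes of the list were lower. Of the 13 genes of this list with a promoter window, 6 held an ERSE or ERSE-II, namely *Calr*, *Canx*, *Creld2*, *Dnajc3*, *Hsp90b1* and *Pdia6*, against 0.167% of the 27025 genes in the table. Among these 6, *Calr* and *Creld2* were higher and *Dnajc3*, *Hsp90b1* and *Pdia6* were lower.

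Of 18 genes of ER-associated degradation, 8 were higher and 4 lower, with a median of 0.17, or 4, 2 and 0.12 with chromosome medians removed, of which 3 and 2 were shared. Before that removal, 16.4% of all genes tested were higher and 15.8% lower. Where the mean reached 1000 normalized counts, these shares were 29.8% and 19.2%. The ubiquitin ligase *Syvn1* rose by 0.79, the derlin *Derl3* by 0.64 and the lectin *Erlec1* by 0.38, while the SYVN1 partner *Sel1l* fell by 0.40 and the mannosidase-like *Edem1* by 0.37. With chromosome medians removed *Syvn1*, on chromosome 19, had 0.41 and *Derl3*, on chromosome 10, had 0.98, both called. *Sel1l* lies on chromosome 12 and had -0.08 with the chromosome median removed (DESeq2 adjusted p = 0.603), and *Erlec1* had 0.22 (0.264). With any 1 library left out 1 to 3 of these genes were higher and 2 lower, and *Derl3*, *Erlec1* and *Edem1* lost their calls. *Syvn1* and *Derl3* were the 2 of 13 matched genes of this list with an ERSE or ERSE-II, and 0 of 13 matched genes of translocation and ER export held one. Of 16 genes of translocation and ER export, 7 were higher and 3 lower, beside the same background shares. With chromosome medians removed 6 were higher and 1 lower, of which 5 and 1 were shared. The translocon subunit *Sec62*, the signal peptidase subunit *Spcs2* and the COPII coat gene *Sec31a* rose by 0.46, 0.40 and 0.39. The COPII subunit *Sec24d* fell from 1142 to 265 normalized counts (-2.11), with *Mettl14* on the opposite strand over 8.38% of its exonic bases. *Sec63* and *Sar1a*, both on chromosome 10, fell by 0.49 and 0.29, and had -0.14 and 0.05 with the chromosome median removed, both uncalled. Without KO-labelled replicate 2 *Sec63* lost its call, and *Sar1a* without either replicate 1.

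Stress chaperones outside the ER were compared last. Of 10 cytosolic heat shock genes, 4 were higher and 1 lower, beside 16.4% and 15.8% of all genes tested and 29.8% and 19.2% of those with a mean of at least 1000. *Hspa8*, the constitutive HSC70, rose from 166660 to 276850 normalized counts (0.73), with 37.3% of its words found elsewhere. The regulator *Hsf1* rose by 0.61 and *Hsph1* by 0.28, while *Hsp90ab1* fell by 0.23 and was not called with chromosome medians removed (-0.10, DESeq2 adjusted p = 0.24). The inducible *Hspa1a* and *Hspa1b* had at most 32.1 and 137 normalized counts and did not pass, both chosen after their values were seen. They are uncertain, with 61.0% and 62.3% of their words found elsewhere, and *Hspa1a* has a model on the opposite strand over 18.87% of its exonic bases. Of 8 mitochondrial chaperones and proteases, *Clpx* was higher, at 0.27, and 0 were lower by DESeq2 (1 at an unadjusted p under 0.05) and by edgeR. With chromosome medians removed 1 other gene of this list was higher and 1 was lower. *Clpx* was not called with any 1 library left out or with chromosome medians removed (0.14).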

How the data were processed

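RNA-seq libraries of HATX WT and *Spen* KO clone 2 mESCs were stranded and depleted of ribosomal RNA. The authors mapped paired reads to mm9 with STAR and summed them over GENCODE vM1 genes in featureCounts. The deposited table holds raw counts. Versions, the strand setting and how reads with several matches were treated are not given in the sources used here. Exonic words of 50 bases found elsewhere in mm9 and overlapping models were therefore counted, and genes with many of either are uncertain.

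Groups and replicate numbers came from the labels, with 2 libraries a group. DESeq2 1.42.0 under R 4.3.3 compared the groups (Wald test, no covariate, Benjamini-Hochberg adjustment over all genes with an adjusted p). Normalized counts are counts divided by DESeq2 size factors. DESeq2 and edgeR 4.0.16 were tested on simulated data. The alternatives were TMM and upper-quartile factors, a minimum of 10 counts in 2 libraries, no independent filtering, the replicate number as a block, edgeR (quasi-likelihood), chromosome medians removed (genes with a mean of at least 50), and each library left out. Members and lists were chosen with earlier results of these data known. Genes named are *Spen*, the 10 members and, per list and direction, the 3 called genes of largest fold change (mean of at least 50), plus genes marked as chosen later and all genes with a motif in the lists described for motifs, and 1 gene that the rule names is not reported here. Of the table, 0 columns lacked a sample.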

Additional observations from a re-analysis of the deposited data

How the results depend on the processing

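The directions of the 5 called members were the same under all alternatives run, and *Trib3*, *Chac1* and *Hspa5* also kept their calls. Replicate numbers only name libraries, as libraries of equal number did not deviate together (r = -0.0177 across 13306 genes). In a fit with a replicate block, *Atf5* had -0.45 (DESeq2 adjusted p = 0.0654) and *Herpud1* -0.34 (0.0898), so 2 members were lower in place of 4, 20 genes of the wider lists and 1857 of all genes were higher. Uncalled members changed sign in places, and the cause was not tested. *Xbp1* had -0.0023 with TMM factors, -0.012 by edgeR and -0.16 with chromosome medians removed, and *Atf4* had 0.021 with upper-quartile factors. At a 1.5-fold change and an adjusted p under 0.01, 1 member was lower (*Trib3*).

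Leaving out each library in turn leaves a group with 1 library, which is taken to vary like the other group. Ranges were -0.55 to -0.35 for *Atf5*, -0.39 to -0.28 for *Herpud1*, -0.086 to 0.097 for *Xbp1*, -0.080 to 0.054 for *Atf4* and -0.18 to 0.25 for *Ddit3*. Lower members numbered 2 in each. In the wider lists 19 to 24 genes were higher and 19 to 21 lower. Of all genes 1563 to 1815 were higher and 1572 to 1737 lower at an adjusted p under 0.05, and 137 to 185 and 332 to 404 at the study's thresholds. Fewer libraries lower these counts. With chromosome medians removed *Slc3a2* had -0.11, *D10Wsu52e* 0.072, *Pdia6* 0.11 and *Sar1a* 0.052. Of 484 values of 44 other named genes, 406 kept direction and call, 74 lost the call and 4 reversed.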
